A study of Mus musculus with 30 samples.

Results

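The genes that write, read and erase N6-methyladenosine (m6A) were followed in mouse spermatogonial stem cell (SSC) lines. They were the genes named *Mettl3*, *Mettl14*, *Wtap*, *Ythdf1*, *Ythdf2*, *Ythdf3*, *Ythdc1*, *Ythdc2*, *Alkbh5* and *Fto*, taken wherever a table listed them and not for their values. Of these 10 genes, 9 were among the 13904 genes with an RNA-seq value, 9 were among the 5806 transcripts with an mRNA half-life, and 8 had both. *Wtap* had a half-life and no RNA-seq row, and *Ythdc2* had an RNA-seq value and no half-life.

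The lines were derived from testes of postnatal day 7 mice of a mixed C57BL/6 and DBA/2J background and were grown on mouse fibroblast feeders. One line was Nanos2 TAG/+ and the other Nanos2 TAG/TAG, so both carried the allele in which an epitope and EGFP tag is fused to the N terminus of NANOS2, and no untagged line was among the samples analysed here. RNA-seq was 1 library of ribosome-depleted total RNA per line. RNA half-lives came from SLAM-seq, in which 4-thiouridine is supplied to the cells, washed out, and followed through the T to C conversions it leaves in reads of the 3′ ends of mRNAs, here over 6 chase times from 0 to 1440 min with 2 libraries per time and line. The methods count these lines as biological replicates, whereas the labels give them different genotypes, and the RNA-seq libraries also differed in the extraction reagent (QIAzol for Nanos2 TAG/+, Trizol for Nanos2 TAG/TAG). The labels describe cells depleted of feeders, whereas the methods describe sorted cells and QIAzol for RNA-seq, so how feeder cells were removed from each library is not certain. Genotype, line and reagent cannot be told apart, each gene had 1 value per line, and the distance between the lines is the only spread available, so no p-values are given.

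m6A is the most abundant internal modification of mRNA. A nuclear complex of METTL3, the catalytic subunit, METTL14, which holds the RNA, and WTAP, which keeps the pair in nuclear speckles, deposits it. Proteins with a YTH domain bind the mark: YTHDC1 in the nucleus, where it acts in splicing and export, and YTHDF1, YTHDF2 and YTHDF3 in the cytoplasm, where YTHDF2 recruits the CCR4-NOT deadenylase to shorten the life of its mRNAs. YTHDC2 is an RNA helicase that works with MEIOC at the entry into meiosis, and ALKBH5 and FTO are demethylases that remove the mark. In the male germline, the loss of METTL3 or METTL14 depletes SSCs, and the loss of ALKBH5 impairs spermatogenesis.

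*Nanos2* itself had 27.5 FPKM (reads per kilobase of gene, scaled for depth) in Nanos2 TAG/+ and 23.8 in Nanos2 TAG/TAG. Of the 11 markers of undifferentiated spermatogonia 10 were listed, all above 0, with a summed level of 677 FPKM in the former line and 938 in the latter. Of these, 5 were higher in Nanos2 TAG/TAG, among them *Etv5*, *Ret* and *Gfra1*, whose differences together exceed the gap between the sums. The other 5 were lower, *Nanos2*, *Zbtb16*, *Id4*, *Sall4* and *Lin28a*. The 6 markers of differentiating spermatogonia, led by *Sohlh2*, summed to 264 and 196 FPKM, and only *Dmrtb1* was higher in Nanos2 TAG/TAG. Of 5 meiotic genes 3 were listed, with sums of 26.6 and 25.5 FPKM. Their directions differed: *Sycp3* went from 4.59 to 0.632 FPKM, while *Sycp1* and *Hormad1* were higher in Nanos2 TAG/TAG by 1.16-fold and 1.08-fold. Fibroblast markers were also present, 9 of 10 listed and none at 0, with sums of 352 and 472 FPKM. Of the 9, 8 were higher in Nanos2 TAG/TAG, as were 7028 of all 13904 genes, and *Col3a1* was slightly lower. *Fn1*, which made up most of each sum, was higher by 1.10-fold and *Vim* by 2.24-fold. *Pdgfrb* was higher by 10.2-fold, from only 0.660 FPKM in Nanos2 TAG/+. The part that feeder RNA has in the values below was not tested, and fewer cells of a type cannot be told apart from less RNA per cell.

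SLAM-seq reads sample the end of the 3′ UTR, whose length ranged from 141 to 4097 nt among the members. Short elements of this region were therefore counted on the sense strand of each member's principal transcript. The element assigned to NANOS2 was searched in 4 forms. The forms were spelled AUGAAAU, then also AUGAAUU, then also AUUAAAU and lastly also AUUAAUU. The others were the AU-rich pentamer AUUUA and UGUANAUA, the Pumilio element, in which N is any base. A form of the NANOS2 element lay in the 3′ UTRs of 6 of the 10 members, AUUUA in 9 and UGUANAUA in 4. Among all 5784 transcripts with a half-life and an annotated 3′ UTR, the shares were 41.8%, 72.5% and 29.7%. A match is a string of letters in the annotated sequence and does not show that a protein was bound.

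The clearest contrast lay among the cytoplasmic readers. The 3′ UTR of *Ythdf3* was 3059 nt long and held 11 matches to the NANOS2 element, 1 pair of which overlapped by 3 bases. *Ythdf2* (2012 nt) held 2 matches and *Ythdf1* (1265 nt) held 0. Of the 705 other 3′ UTRs whose length was within 20% of that of *Ythdf3*, 70.5% held a match, with a median of 1 and a highest count of 8. The 3′ UTR of *Ythdf3* is also poor in G and C (32.0%, against a median of 42.9% for those of similar length). Among the 45 of them within 3 percentage points of its GC content, 88.9% held a match, with a median of 3 and a highest count of 7. Over all 3′ UTRs, irrespective of length, 11 other genes held 11 matches or more. The following sites show the element in its setting, at most 30 bases each, with the match in capitals. Sequences are DNA letters of the sense strand from GENCODE M21, and the coordinates are those of the capitals on GRCm38, all in the last exon of the principal transcript.
Ythdf3, 133 nt after the stop codon (chr3:16214111-16214117, plus strand): aaccctttaacATGAAATtgattcttcttg
Ythdf3, 1003 nt after the stop codon (chr3:16214981-16214987, plus strand): ggccttgatccATGAATTaaatcagtatct
Ythdf3, 1125 nt after the stop codon (chr3:16215103-16215109, plus strand): ctatttttttcATTAATTacatatcaacat
Ythdf3, 2241 nt after the stop codon (chr3:16216219-16216225, plus strand): gattattttccATTAAATgacatcattacc
Ythdf2, 671 nt after the stop codon (chr4:132186247-132186253, minus strand): attaagtcaggATTAATTtgatttcaaagc
Ythdf2, 1359 nt after the stop codon (chr4:132185559-132185565, minus strand): aggtcccaaaaATGAAATtctagtggaact
Mettl14, 475 nt after the stop codon (chr3:123368905-123368911, minus strand): cgggaggggaaATGAAATctcgttcttcca
Ythdc1, 722 nt after the stop codon (chr5:86836630-86836636, plus strand): tactgttttgtATGAAATaaattgataaag
Alkbh5, 302 nt after the stop codon (chr11:60554717-60554723, plus strand): atgttttggttATGAAATtctagtttgggc

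The 4 sites of *Ythdf3* stand for the 4 forms, and the site 1003 nt after its stop codon overlaps the next match. That match begins with the last 3 capitals and runs on into the bases after them. The map of the 3′ UTRs places the matches of *Ythdf3* along the whole length, from 133 to 2872 nt. AUUUA was present in all 3 cytoplasmic readers, with 10 copies in *Ythdf3*, 4 in *Ythdf2* and 5 in *Ythdf1*. As many or more were held by 15.9%, 44.6% and 12.6% of their peers of similar length, and in those also of similar GC content the median was 11, 5 and 3 copies. In *Ythdf1*, which had no NANOS2 match, 4 of the 5 pentamers lay within 60 nt near the 3′ end. These windows, with the pentamer in capitals, are the ends of that group.
Ythdf1, 1100 nt after the stop codon (chr2:180904538-180904542, minus strand): ccttccgaaactATTTActccaaaagaccc
Ythdf1, 1155 nt after the stop codon (chr2:180904483-180904487, minus strand): atttagacttgtATTTAgaacgtgtcactt

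**Figure D1:**
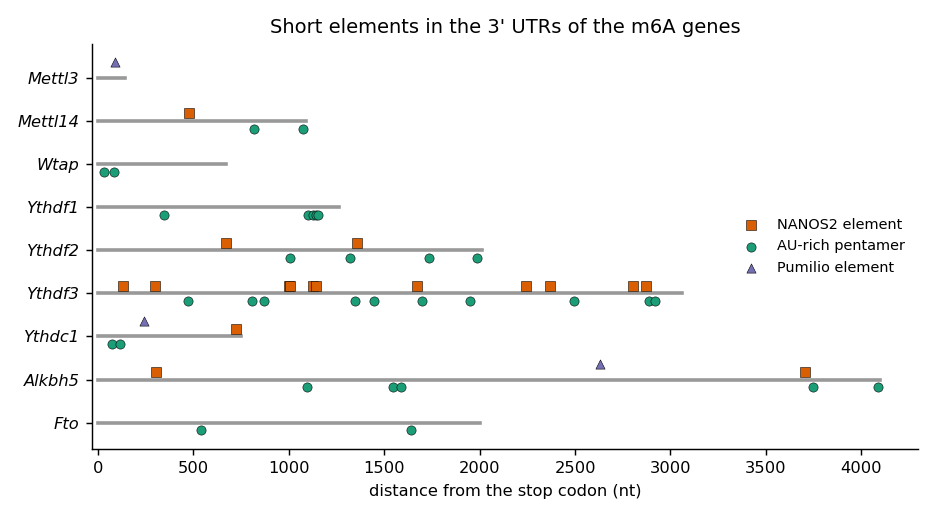
Positions of the NANOS2 element (squares), AUUUA (circles) and the Pumilio element (triangles) in the 3′ UTR of the principal transcript of 9 members, against the distance from the stop codon in nt, where each grey line is 1 3′ UTR. *Ythdf3* carries 11 squares, *Ythdf2* and *Alkbh5* carry 2 each, and *Ythdf1*, *Wtap*, *Mettl3* and *Fto* carry 0.

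The other members spread widely in length and content. *Alkbh5* had the longest 3′ UTR of the group, 4097 nt with 2 NANOS2 matches, which was the median of its peers. *Mettl3* had the shortest, 141 nt, with no match to the NANOS2 element or AUUUA and 1 Pumilio element, which 9.26% of its 162 peers also held. *Ythdc2* (1936 nt) held 3 NANOS2 matches, 9 copies of AUUUA and 4 of UGUANAUA, and 3 of its 909 peers held as many Pumilio elements or more. Its 3′ UTR is likewise poor in G and C (30.7%), and among the 41 peers that were also of similar GC content 61.0% held a Pumilio element, with a median of 1 and a highest count of 4, and the median number of AUUUA copies was 6. *Wtap* (672 nt) and *Fto* (2004 nt) each held 2 copies of AUUUA and no other element.

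RNA levels spanned a wide range within the group. *Ythdf1* was the most abundant member, with 253 FPKM in Nanos2 TAG/+ and 217 in Nanos2 TAG/TAG, and *Ythdc2* the least, with 3.15 and 3.96 FPKM, so that the range covered 80.2-fold in the former line and 54.9-fold in the latter. In each line 6 of the 9 members lay above the median of all listed genes (10.2 and 10.5 FPKM), and *Mettl14*, *Ythdf3* and *Ythdc2* lay below it. Levels are per length of gene. In the intervals given below, counting error at 95% was taken from the reads recovered from FPKM, and it does not cover the spread between cultures.

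**Figure D2:**
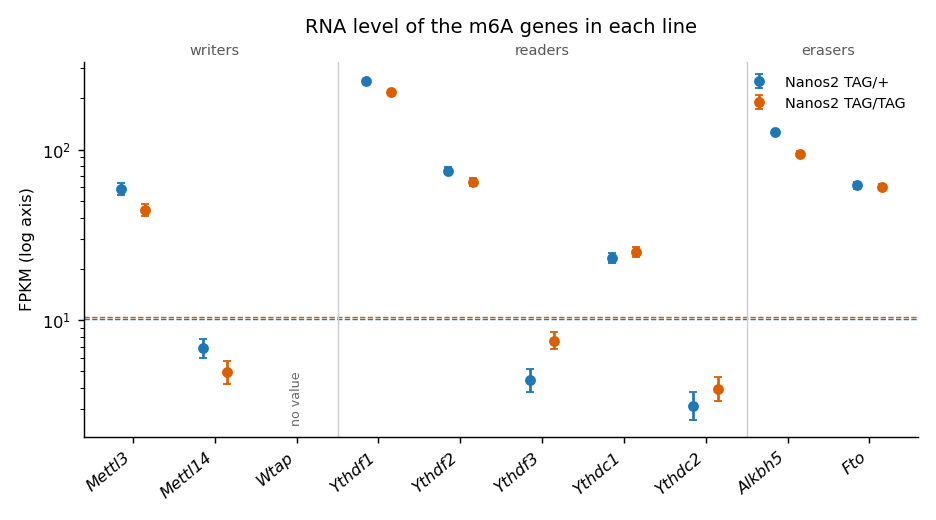
FPKM (log axis) of each member in Nanos2 TAG/+ (blue) and Nanos2 TAG/TAG (orange), with the exact Poisson 95% interval of the reads as bars and the median of all listed genes in each line as dashed lines. *Ythdf1* stands highest at 253 and 217 FPKM, whereas *Mettl14*, *Ythdf3* and *Ythdc2* lie below the medians, and *Wtap* has no value.

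Among the writers, the catalytic subunit was far more abundant than its partner. *Mettl3* (chr14:52294841-52305128, minus strand) had 58.7 FPKM in Nanos2 TAG/+ (interval 54.4 to 63.3, 673 reads) and 44.3 in Nanos2 TAG/TAG (40.7 to 48.2, 547 reads). *Mettl14* (chr3:123368297-123386108, minus strand) had 6.83 FPKM (5.97 to 7.79, 226 reads) and 4.95 (4.24 to 5.73, 176 reads). Both were lower in Nanos2 TAG/TAG, by intervals that do not overlap, and the ratio of *Mettl3* to *Mettl14* was 8.59 and 8.97. This ratio depends on the gene length used. The authors' FPKM fitted the mean length of the annotated transcripts, which for *Mettl3*, with 15 transcripts, is 1051 nt against 2025 nt for the principal one. With the length of the principal transcript, *Mettl3* came to 30.5 and 23.0 FPKM, *Mettl14* to 7.56 and 5.47, and the ratio to 4.03 and 4.21. Exons of *Mettl3* also overlap those of *Tox4* on the other strand, and 13.8% of the 50-base stretches of its principal transcript occur in transcripts of other genes, so its level is uncertain.

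The cytoplasmic readers formed a steep order in both lines. *Ythdf1* (chr2:180904377-180920949, minus strand) rested on 5561 and 5143 reads. *Ythdf2* (chr4:132184912-132212303, minus strand) had 75.3 FPKM in Nanos2 TAG/+ (71.7 to 79.0, 1671 reads) and 64.6 in Nanos2 TAG/TAG (61.5 to 67.9, 1544 reads). *Ythdf3* (chr3:16183212-16217037, plus strand) had 4.44 FPKM (3.80 to 5.16, 169 reads) and 7.60 (6.78 to 8.49, 311 reads). Of the summed FPKM of these 3 genes, *Ythdf1* made up 76.0% and 75.0%, *Ythdf2* 22.6% and 22.3%, and *Ythdf3* 1.34% and 2.62%. The order and the share of *Ythdf1* hardly moved between the lines, and with the principal transcript lengths *Ythdf1* made up 80.0% and 78.8%. Stretches of *Ythdf2* (8.55% of its principal transcript) recur in the predicted genes Gm6823 and Gm8401, and reads from these could not be separated here.

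The other readers were less abundant than *Ythdf1* and *Ythdf2*. *Ythdc1* (chr5:86804221-86836659, plus strand), the nuclear reader, had 23.1 FPKM in Nanos2 TAG/+ (21.5 to 24.7, 820 reads) and 25.1 in Nanos2 TAG/TAG (23.5 to 26.7, 958 reads), and these intervals overlap. An exon of Gm43055 overlaps *Ythdc1* on the same strand. Stretches of *Ythdc1* (20.1% of its principal transcript) also recur in transcripts of other genes, so its level is uncertain. *Ythdc2*, the meiotic helicase, on chromosome 18, rested on the fewest reads of the group, 114 and 154, with intervals of 2.60 to 3.79 and 3.36 to 4.63 FPKM that overlap. Its partner *Meioc* had 12.4 and 11.4 FPKM.

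Both erasers were well expressed. *Alkbh5* (chr11:60536381-60558512, plus strand) had 127 FPKM in Nanos2 TAG/+ (123 to 131, 4409 reads) and 94.7 in Nanos2 TAG/TAG (91.6 to 97.9, 3531 reads), the second highest level of the group in both lines. *Fto* (chr8:91313525-91668439, plus strand) had 61.8 FPKM (59.0 to 64.7, 1810 reads) and 60.3 (57.6 to 63.1, 1902 reads), almost the same value. *Alkbh5* exceeded *Fto* by 2.06-fold and 1.57-fold, and by 1.52-fold and 1.15-fold with the principal transcript lengths. Exons of the genes Gm45427 and 4831440D22Rik overlap *Fto* on the other strand.

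Ordered by mean FPKM, the group ran *Ythdf1*, *Alkbh5*, *Ythdf2*, *Fto*, *Mettl3*, *Ythdc1*, *Ythdf3*, *Mettl14* and *Ythdc2*. Of the 8 pairs of neighbours in this order, the ranges of both lines overlapped in 1, *Ythdf3* and *Mettl14*, which changed places between the lines. The gaps between *Ythdf2* and *Fto* and between *Fto* and *Mettl3* were narrow: the lower value of *Fto*, 60.3 FPKM, was just above the higher value of *Mettl3*, 58.7. With the principal transcript lengths the order changed: *Fto* (46.6 and 45.5 FPKM) stood above *Ythdf2* (37.1 and 31.9) in both lines, and *Mettl14* above *Ythdf3* (3.04 and 5.19). The ranges then overlapped in 1 pair as well, but it was *Mettl3* and *Ythdc1* (25.4 and 27.6 FPKM).

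mRNA half-lives covered a far narrower range than RNA levels. The longest in the group was that of *Alkbh5*, with 278 min in Nanos2 TAG/+ and 275 min in Nanos2 TAG/TAG, and the shortest that of *Ythdf3*, with 98.2 and 86.8 min, a span of 2.83-fold and 3.16-fold. The median over all transcripts was 224 min (quartiles 162 and 289) in Nanos2 TAG/+ and 226 min (quartiles 159 and 300) in Nanos2 TAG/TAG. Of the 9 members, 5 fell below this median in the former line and 4 in the latter, and 7 and 5, respectively, lay between the quartiles. The members' own medians were 216 and 242 min. No deposited half-life carries an error or a depth.

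**Figure D3:**
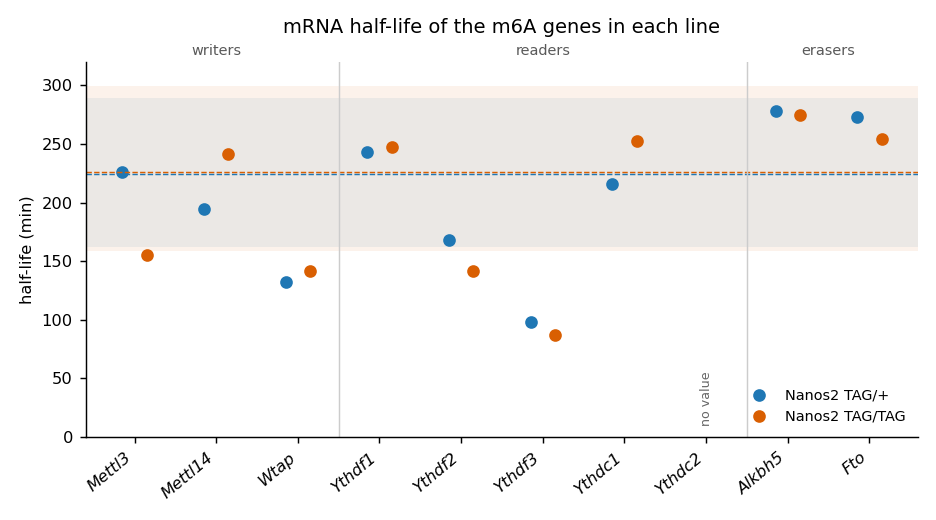
Half-life (min) of each member in Nanos2 TAG/+ (blue) and Nanos2 TAG/TAG (orange), with the median of all 5806 transcripts (dashed lines) and their quartiles (shaded) in each line. *Ythdf3*, at 98.2 and 86.8 min, lies well below the shaded band in both lines, *Mettl3* and *Mettl14* lie on opposite sides of the median in the lines, and *Ythdc2* has no value.

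The writer transcripts did not share a half-life. *Mettl3* had a half-life of 226 min in Nanos2 TAG/+, the 50.9th percentile of all transcripts, and 155 min in Nanos2 TAG/TAG, the 23.9th. *Mettl14* had 195 min (37.2nd percentile) and 242 min (56.3rd). The ranges of these partners overlap, and their order was opposite in the lines. *Wtap* was the short-lived writer in both, with 132 and 141 min (15.3rd and 19.7th percentiles), below either value of the others. The gene lies at chr17:12966796-12994169 on the minus strand, and 18.1% of the 50-base stretches of its principal transcript recur in transcripts of other genes.

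The cytoplasmic readers followed the same order in half-life as in RNA level. *Ythdf1* had 243 and 248 min (58.2nd and 58.5th percentiles). *Ythdf2* had 168 and 142 min (27.0th and 19.8th percentiles), and *Ythdf3* stood at the 6.47th and 5.64th percentiles. The ranges of the 3 genes did not overlap: the half-life of *Ythdf1* was 1.44-fold and 1.75-fold that of *Ythdf2*, and 2.48-fold and 2.85-fold that of *Ythdf3*. *Ythdc1*, in the nucleus, had 216 and 252 min, on either side of the median and overlapping *Ythdf1*. The erasers had the longest half-lives of the group in both lines. *Alkbh5* lay at the 71.7th and 68.3rd percentiles, and *Fto*, with 273 and 254 min, at the 69.9th and 61.0th. In Nanos2 TAG/TAG *Fto* was close to *Ythdc1*.

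By mean half-life the order was *Alkbh5*, *Fto*, *Ythdf1*, *Ythdc1*, *Mettl14*, *Mettl3*, *Ythdf2*, *Wtap* and *Ythdf3*. The ranges overlapped in 4 of the 8 pairs of neighbours, those from *Ythdf1* through *Ythdc1*, *Mettl14* and *Mettl3* to *Ythdf2*. *Alkbh5* and *Fto* were separated by less than 2 min at their nearest values (275 and 273 min). At the lower end *Ythdf3* stood apart in both lines, whereas the higher value of *Wtap* (141 min) came close to the lower value of *Ythdf2* (142 min).

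Half-life and RNA level moved together across all transcripts (Spearman rho 0.51 over 5152 transcripts with both, a description across genes that share their libraries), so each member was set beside transcripts of its own quartile group of mean FPKM. *Ythdf3* and *Mettl14*, with almost the same mean level (6.02 and 5.89 FPKM), belonged to the lowest group, whose median half-life was 163 min in either line. There *Ythdf3* was below the median and *Mettl14* above it, in both lines. *Ythdf1* and *Alkbh5* belonged to the highest group, with medians of 287 and 299 min, and both were below them. *Fto* was above the medians of its group (233 and 237 min) and *Mettl3* and *Ythdf2*, in the same group, were below. *Ythdc1* was above those of the second-lowest group (205 and 209 min). In all, 5 of 8 members were below the median of their group, and these were the same in each line.

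**Figure D4:**
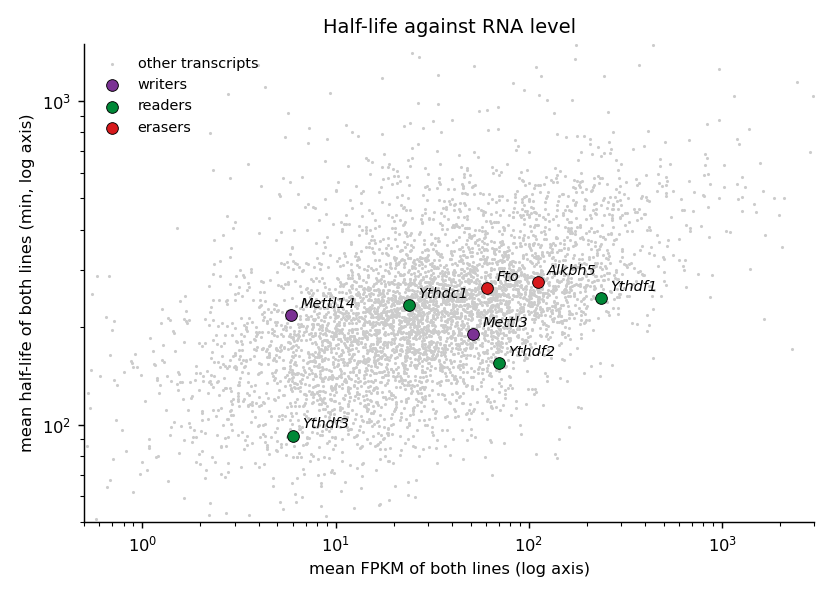
Mean half-life (min) against mean FPKM of both lines (log axes) for 5152 transcripts (grey) and the 8 members with both values (writers purple, readers green, erasers red), with 48 transcripts outside the axes. *Ythdf3* and *Mettl14* share a level near 6 FPKM and differ in half-life (92.5 and 218 min), and *Ythdf1* lies at the upper end of FPKM with 245 min.

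Over all transcripts, half-lives were shorter where the 3′ UTR was longer (Spearman rho -0.28, again a description across genes). Beside the 705 transcripts with a 3′ UTR of similar length, whose medians were 200 and 201 min, *Ythdf3* stood at the 8.51st and 6.10th percentiles. *Alkbh5*, with the longest 3′ UTR, stood at the 86.6th and 83.4th percentiles of its 529 peers (medians 188 and 193 min). *Mettl3*, with the shortest, stood at the 25.3rd and 13.6th of its 162 peers, whose medians were 311 and 304 min. *Alkbh5* thus ranked high and *Mettl3* low among transcripts with 3′ UTRs of their length. Transcripts with 0 matches to the NANOS2 element had median half-lives of 245 and 247 min (3365 transcripts, median 3′ UTR 767 nt), and those with 4 or more had 161 and 165 min (298 transcripts, median 3′ UTR 4165 nt). Number of matches and length of the 3′ UTR cannot be told apart in these medians. The part of either in the members' half-lives was not tested.

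Between the lines, the RNA levels of most members differed by less than 1.5-fold. A difference was called when it passed 1.5-fold on the scale of log2(FPKM + 0.1). *Ythdf3* was the 1 member called, 1.71-fold higher in Nanos2 TAG/TAG (interval 1.41 to 2.07, log2 difference 0.76), and 22.8% of all genes were higher by more than 1.5-fold. No member was lower by more than 1.5-fold, where 19.4% of all genes were. The 2-fold limit was passed by 13.5% of all genes upward, 9.59% downward, and no member. In all, 6 of the 9 members had the lower value in Nanos2 TAG/TAG, as did 49.5% of all genes, and the median log2 difference was -0.22, against 0.01 over all genes.

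The writers and *Alkbh5* had the next largest differences. *Mettl14* was lower in Nanos2 TAG/TAG by 1.38-fold (log2 difference -0.46), *Alkbh5* by 1.34-fold (-0.43) and *Mettl3* by 1.32-fold (-0.40). *Ythdf1* and *Ythdf2* were both lower by 1.16-fold (-0.22 each), so that their ratio stayed at 3.36 in both lines while that of *Ythdf1* to *Ythdf3* went from 56.9 to 28.6. *Ythdc2* (0.32), *Ythdc1* (0.12) and *Fto* (-0.03) had intervals that held a ratio of 1. The intervals of the other 6 members left out 1, as did those of 68.4% of all genes, so the share among the members is close to that of the whole table. Of the 9 members, 8 differed by less than the median gene, whose log2 difference was 0.47 in size. That median covers all listed genes, whereas the members' median FPKM percentile was 81.6. Among genes with an FPKM of at least 1 in both lines, 17.4% were higher and 16.9% lower by more than 1.5-fold. The part that RNA level has in this contrast was not tested.

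Half-lives differed less still, and no member passed 1.5-fold in either direction. Of all transcripts, 10% had a half-life longer by more than this in Nanos2 TAG/TAG and 10.7% a shorter one, and 3.05% and 3.67% passed 2-fold. *Mettl3* came nearest, 1.46-fold shorter in Nanos2 TAG/TAG (-71.1 min, log2 difference -0.54), and 76.3% of all transcripts differed by less. *Mettl14* was longer (47.2 min, log2 difference 0.31), as was *Ythdc1* (36.6 min, 0.23), *Ythdf2* was shorter (-26.5 min, -0.25). *Wtap* (0.10), *Ythdf1* (0.03), *Alkbh5* (-0.02), *Fto* (-0.10) and *Ythdf3* (-0.18) lay nearer to 0. The median over the group was -0.02, against 0.04 over all transcripts, and 7 of 9 members differed by less than the median transcript (0.27 in size).

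Side by side, the log2 differences of level and half-life were 0.76 and -0.18 for *Ythdf3*, -0.46 and 0.31 for *Mettl14*, -0.40 and -0.54 for *Mettl3* and -0.22 and -0.25 for *Ythdf2*. Of these values only the level of *Ythdf3* passed 1.5-fold, so the signs of the others are given as values. For *Fto* and *Ythdc1* the counting interval of the level held a ratio of 1, and for *Alkbh5* and *Ythdf1* the half-lives differed by no more than 4.66 min, so no direction is given for them.

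**Figure D5:**
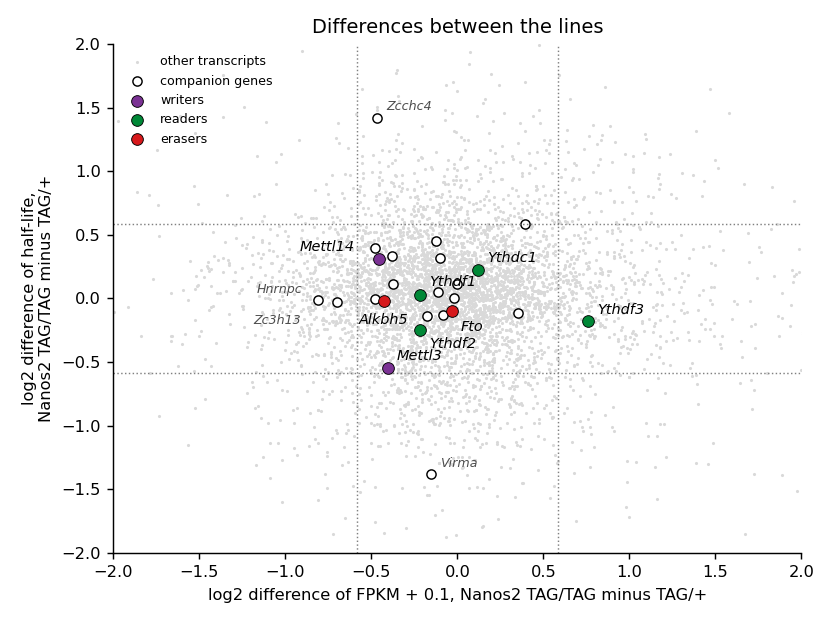
Log2 difference of half-life against log2 difference of FPKM + 0.1, Nanos2 TAG/TAG minus Nanos2 TAG/+, for 5152 transcripts (grey), the members (filled) and 17 companion genes (open), with 82 transcripts outside the axes and dotted lines at 1.5-fold. The 8 members lie inside the dotted lines for half-life, and *Ythdf3* lies to the right of them for FPKM at 0.76.

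A list of 25 companion genes of the same pathway was described in the same way: 24 had an FPKM and 18 a half-life. In FPKM 20 of 24 had the lower value in Nanos2 TAG/TAG, against the same 49.5% of all genes. That share covers genes of every level, and the part that RNA level has in this contrast was not tested. Among these 20, the ratios of *Cbll1*, *Mettl16*, *Igf2bp3*, *Prrc2a*, *Elavl1* and *Meioc* had counting intervals that held 1, so no direction is given for them. Of the 24, 3 were lower by more than 1.5-fold and 1 was higher by more, where 19.4% and 22.8% of all genes were, and the median log2 difference was -0.23, close to that of the members. In half-life 10 of 18 were longer, as were 54.1% of all transcripts, and the median log2 difference was 0.08. In each direction 1 passed 1.5-fold, where 10% of all transcripts were longer by more and 10.7% shorter. The companions' median levels were 34.7 and 29.5 FPKM and their median half-lives 259 and 249 min.

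The partners of the writer complex had the lower FPKM in Nanos2 TAG/TAG in 5 of 5 cases, and 1 of them passed 1.5-fold. Over all genes, 49.5% were lower and 19.4% were lower by more than 1.5-fold. The ratio of *Cbll1* had a counting interval that held 1. *Zc3h13*, which anchors the complex in the nucleus, went from 12.1 to 7.39 FPKM (447 and 294 reads, log2 difference -0.70). *Virma*, the largest subunit, had similar levels (25.1 and 22.6 FPKM) and the largest half-life difference of the partners, 247 min in Nanos2 TAG/+ and 95.1 min in Nanos2 TAG/TAG (log2 difference -1.38). The ubiquitin ligase *Cbll1* had 120 and 110 min, and *Zc3h13* 186 and 182 min. Over the whole complex, *Cbll1* and *Wtap* lay below the lower quartile of all transcripts in both lines, *Virma* and *Mettl3* in Nanos2 TAG/TAG, and *Mettl14* and *Zc3h13* in neither. *Rbm15* and *Rbm15b*, which bring the complex to its targets, had no half-life.

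Of the other methyltransferases and their partners, *Mettl16*, *Mettl5*, *Trmt112*, *Zcchc4* and *Pcif1*, none passed 1.5-fold in FPKM, where 22.8% of all genes did upward and 19.4% downward. *Zcchc4*, which modifies ribosomal RNA, had a half-life of 82.3 min in Nanos2 TAG/+ and 220 min in Nanos2 TAG/TAG (log2 difference 1.42) and rested on few RNA-seq reads (150 and 116). Among the other proteins that bind methylated or opened RNA, *Hnrnpc* went from 261 to 148 FPKM (log2 difference -0.81) with half-lives of 398 and 395 min. *Prrc2a* was the most abundant companion (367 and 362 FPKM) and had the longest half-life of the list in Nanos2 TAG/+, 429 min in either line. Of the 7 such genes with a half-life, none differed by 1.5-fold, where 10% of all transcripts were longer by more and 10.7% shorter.

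The genes of methyl donor supply and mRNA decay completed the list. *Mat2a*, the synthase of S-adenosylmethionine, had 209 and 150 FPKM and a half-life of 114 and 113 min, short for a transcript of the highest quartile group of expression. Its regulatory subunit *Mat2b* went from 25.8 to 11.5 FPKM (383 and 184 reads, log2 difference -1.16). *Ahcy*, which clears the product of methylation, had the longest half-life of the list in Nanos2 TAG/TAG, 562 min against 374 min, just under 1.5-fold. *Rida*, which links YTHDF2 to an endonuclease, was the lowest companion, with 1.15 and 2.76 FPKM from 17 and 44 reads (log2 difference 1.20). The scaffold of the deadenylase, *Cnot1*, had 264 and 190 FPKM, with half-lives of 184 and 243 min. *Meioc* had the shortest half-life of the list in Nanos2 TAG/+, 82.0 min against 112 min.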

How the data were processed

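RNA-seq and SLAM-seq tables of 1 line per genotype were used, and the 4 CRAC libraries were not analysed here. The FPKM values were deposited by the authors. Their processing notes name kallisto and DESeq2, and the aligner, counter and annotation of this table are not given in the sources used here. The half-lives, in minutes, came from first-order decay curves that the authors fitted (SlamDunk, R nls) after collapsing technical replicates, and were deposited as 1 value per transcript and line without error or depth. FPKM columns were assigned by name (GG to Nanos2 TAG/TAG, Gp to Nanos2 TAG/+), and half-lives by the genotype in the name of each deposited table. The labels call the same tables EXP and CTL, although CTL elsewhere means an untagged line, and each sample's genotype label gives Nanos2 TAG/+ for the latter.

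Whole reads were recovered as FPKM times mean transcript length (GENCODE M21) times depth, which gave whole numbers within 0.01 for 100% of 13884 genes at depths of 10908790 and 11738620 reads. Intervals are exact Poisson for a level and Clopper-Pearson for a ratio, and cover counting error only. Log2 differences of FPKM used a pseudocount of 0.1. Calls were past 1.5-fold, with no test, since there is 1 value per line. 3′ UTRs came from 1 coding transcript per gene (GRCm38). Among transcripts ranked alike as principal, the one with the longest 3′ UTR was taken. Whether the cells used that 3′ end was not tested. Peers of similar length came from transcripts with a half-life. All members were named, and companions by counts and by name where past 1.5-fold or highest or lowest in the list. Companions whose counting interval held a ratio of 1 were named as well. *Cnot1*, *Mat2a* and *Cbll1* were chosen after their values were seen. The members and lists were chosen with earlier results of these data known. Scripts were tested on simulated data (Python 3.11.15, scipy 1.17.1).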

Additional observations from a re-analysis of the deposited data

How the results depend on the processing

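No paired analysis was possible because each line had 1 library or 1 half-life per gene, so that no test was made. With 2-fold in place of 1.5-fold as called, 0 members were higher in FPKM in Nanos2 TAG/TAG in place of 1. The share of all genes was then 13.5% in place of 22.8%. The count stayed at 1 higher and 0 lower with a pseudocount of 1, an FPKM limit of 1, centring on the median, upper-quartile scaling and the principal transcript length, an alternative chosen after seeing the data. Over these settings the share of all genes ran from 17.4% to 24.2% higher and from 15.7% to 19.8% lower. The median log2 half-life difference of the members, -0.02, became -0.0563 when centred on the median of all transcripts and -0.0609 with an FPKM of at least 1 in both lines, which leaves out *Wtap*. The count of members past 1.5-fold in half-life stayed at 0, and *Mettl3* reached -0.58 when centred. Of all transcripts, 9.06% were longer and 12.0% shorter by more than 1.5-fold when centred, and 9.95% and 10.7% with the FPKM limit. Signs turned for *Ythdf1* in half-life (-0.01 when centred) and for *Fto* in FPKM (0.01 with upper-quartile scaling). The members' median half-life percentile, 47.8, was 56.3 with the Nanos2 TAG/TAG line alone, and their median FPKM percentile, 81.6, was 77.7 with the FPKM limit. The depth limits *Ythdc2*, *Ythdf3* and *Mettl14* most.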
